A study of Mus musculus with 12 samples.

Results

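The autophagy machinery is described here by 36 genes that cover the pathway, from the kinase complex that starts it to the receptors that bring in cargo. They were picked by gene symbol from the 46072 genes of a table in which the submitters compared osteoclasts, dendritic cells and macrophages grown from mouse bone marrow. All 36 were found, and all 36 had an adjusted p-value in each of the 3 comparisons, so none was lost to a filter on low values. The cultures came from C57BL/6J mice aged 6 to 8 weeks and were read as single reads of 50 bases, with 4 libraries for each cell type. Osteoclasts (Oc) received M-CSF at 30 ng/ml and RANKL at 50 ng/ml, and their wells were treated with Accutase at the end to take away cells with a single nucleus. Immature dendritic cells (Dc) received GM-CSF at 20 ng/ml. Macrophages (Mo) received M-CSF at 30 ng/ml. Osteoclast and macrophage precursors had first been expanded for 5 days in M-CSF at 100 ng/ml, and differentiation took 8 to 10 days in all 3 cell types, in the same RPMI medium with dialysed serum and L-lysine and L-arginine. The submitters repeated the whole experiment 4 times, each time with marrow of a new mouse that gave all 3 cell types.

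Autophagy is the route by which a cell wraps part of its own cytoplasm in a membrane, the autophagosome, and delivers it to the lysosome for breakdown. A kinase complex built around Ulk1 starts the process, a phosphatidylinositol 3-kinase complex marks the growing membrane, and a conjugation system attaches small proteins of the Atg8 family (LC3 and GABARAP) to it. Receptors such as p62 bind cargo on one side and Atg8 proteins on the other. In mouse osteoclasts, proteins of the conjugation system are also known to act at the ruffled border, the membrane through which the cell dissolves bone, and in humans mutations of SQSTM1, the gene of p62, are known from Paget's disease of bone.

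The deposited table holds the mean of each cell type over its 4 libraries, as reads divided by a library's size factor, and these means summed to 24242540 in osteoclasts, 27731759 in dendritic cells and 25022062 in macrophages. Markers of each label were checked first. In the authors' deposited table all 7 osteoclast markers, among them Ctsk and Acp5, were higher in osteoclasts than in macrophages, and all 8 dendritic cell markers were higher in dendritic cells than in macrophages. Of 7 macrophage markers, 6 were lower in osteoclasts and 5 were lower in dendritic cells than in macrophages per the authors' deposited table. Fcgr1, among the macrophage markers, had means of 2944 in dendritic cells and 1812 in macrophages (adjusted p = 0.152, not called) per the authors' deposited table. The osteoclast markers summed to means of 302390 in osteoclasts, 19242 in dendritic cells and 851.3 in macrophages, and 5 of the 7 were called higher in dendritic cells than in macrophages, per the authors' deposited table. Against dendritic cells, 5 of the 7 were called higher in osteoclasts and 2 were not called, among them Ocstamp with means of 1589 in osteoclasts and 2583 in dendritic cells, per the authors' deposited table. Markers of neutrophils, however, summed to means of 484.6 in osteoclasts, 33015 in dendritic cells and 432.6 in macrophages per the authors' deposited table, with 9 of 10 called higher in dendritic cells than in macrophages. Their part in any result on dendritic cells below was not tested. Of the neutrophil sums, Mmp8 alone made up 406.7 in osteoclasts and 339.9 in macrophages per the authors' deposited table. Mpo was not called, with means of 3.06 in dendritic cells and 6.59 in macrophages per the authors' deposited table. Summed means of 8 mast cell and basophil markers were 10.7 in osteoclasts, 644.0 in dendritic cells and 6.81 in macrophages, those of 5 B cell markers were 68.1, 336.0 and 939.7, and those of 6 stromal markers were 290.3, 43.3 and 17.6, in the same order, per the authors' deposited table. Of the stromal sums, Dcn alone made up 282.5 in osteoclasts, 1.53 in dendritic cells and 1.21 in macrophages, and 4 of the 6 stromal markers had negative fold changes in osteoclasts against macrophages and 4 of the 6 against dendritic cells, per the authors' deposited table. In bulk RNA of this kind, fewer cells of a type and less RNA per cell cannot be told apart.

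Because the printed means carry 15 digits, the whole reads of single libraries could be worked out for 68 of the 108 values of the 36 genes in 3 cell types, out of those with means up to 2000, the highest tried. For 54 of the 68, only a single set of whole reads gave the printed mean, and for 14 the less spread of several possible sets was taken. These are the values per library given below, as reads divided by the size factor ("normalised reads"). The 14 chosen sets have low spread by the way they were picked, so a lack of overlap that involves them is weaker evidence. The coefficient of variation over 4 libraries lay between 1.49% and 31.6%, with a median of 6.74% in osteoclasts, 12.2% in dendritic cells and 15.4% in macrophages. These medians cover different genes, and the 14 chosen sets were all of osteoclasts or macrophages, so they do not compare the cell types. Which library of one cell type shares a mouse with which library of another cannot be read from the table.

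All 36 genes were expressed in all 3 cell types, over a wide range of levels. Compared per kb of exon, Gabarap, an Atg8 family protein, led in each of them, with 6440 in osteoclasts, 9104 in dendritic cells and 7492 in macrophages, computed from the means of the authors' deposited table. Sqstm1, which encodes the receptor p62, followed with 5584 per kb in osteoclasts, 2812 in dendritic cells and 4908 in macrophages, from the same means of the authors' deposited table. In dendritic cells the mitophagy receptor gene Bnip3 stood between them at 2931 per kb, against 598.9 in osteoclasts and 520.2 in macrophages, from the means of the authors' deposited table. The lowest level was that of Atg16l2, a relative of the scaffold gene Atg16l1, with 22.3 per kb in osteoclasts, 16.1 in dendritic cells and 28.6 in macrophages in means taken from the authors' deposited table. The 36 means together made up 0.336% of all summed means in osteoclasts, 0.318% in dendritic cells and 0.359% in macrophages. The highest of the 3 means fell in osteoclasts for 8 genes, in dendritic cells for 12 and in macrophages for 16, which is a count of means and takes no account of their spread.

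**Figure D1:**
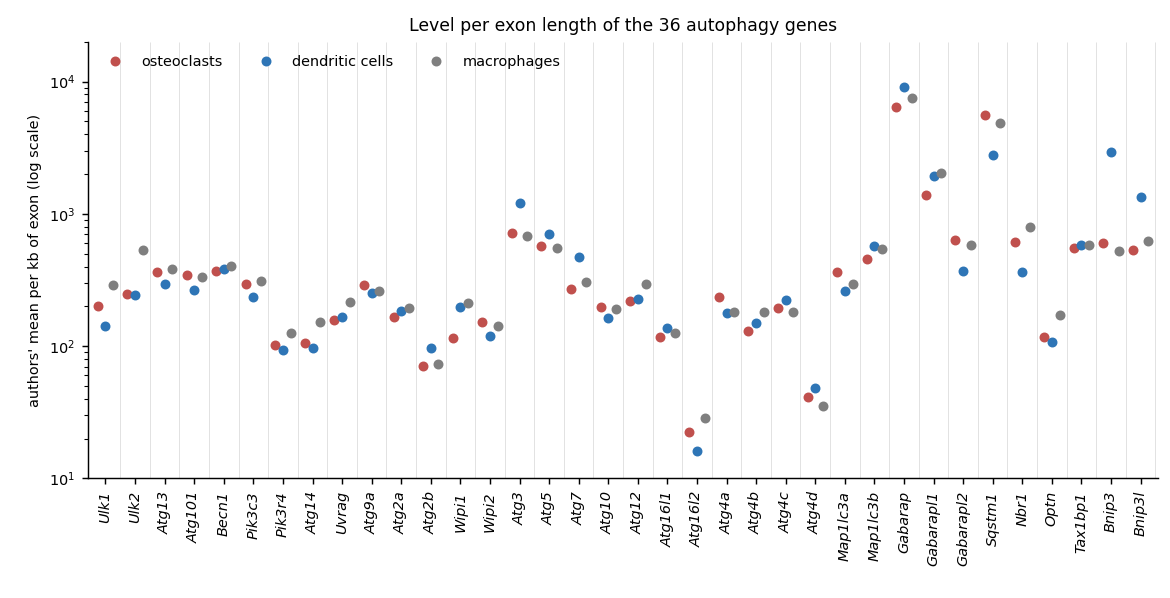
Mean of each of the 36 autophagy genes per kb of exon, on a log scale, in osteoclasts (red), dendritic cells (blue) and macrophages (grey), from the means of the authors' deposited table, without error because each point is a mean over 4 libraries. Gabarap and Sqstm1 lie at the top, Atg16l2 at the bottom, and the blue points of Bnip3 (2931) and Bnip3l (1341) lie above the other 2 points of their genes.

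The calls below are the authors' own, an adjusted p under 0.05 over all genes tested, and the standard error (SE) beside a log2 fold change is the size that the authors' p-value implies. Against macrophages, osteoclasts had 1 of the 36 genes called higher and 9 called lower, while 14.5% of all 17822 genes tested were higher and 14.7% lower per the authors' deposited table. The 10 called genes were 27.8% of the 36, next to 29.3% of all genes tested, so the share called lay near that of the table as a whole. Against dendritic cells, osteoclasts had 7 genes called higher and 9 lower per the authors' deposited table, 44.4% of the 36 in either direction, where all 21217 genes tested gave 16.8% higher, 20.1% lower and 36.9% in either direction. Dendritic cells against macrophages had 6 called higher and 13 lower per the authors' deposited table, 52.8% of the 36 in either direction, where all 20730 genes tested gave 20.3%, 16.4% and 36.7%. The median log2 fold change of the 36 was -0.10 for osteoclasts against macrophages (all genes -0.03), -0.04 for osteoclasts against dendritic cells (all genes -0.05) and -0.14 for dendritic cells against macrophages (all genes 0.05) per the authors' deposited table. The 3 comparisons share libraries and are not independent of each other. The scaling between cell types moved the balance of higher and lower calls in all 3. With the summed means made equal, which adds 0.19 to each log2 fold change of osteoclasts against dendritic cells, 14 of the 36 genes were called higher, and over all genes 5321 were called higher and 3341 lower, against 3554 and 4275 with the authors' scaling. The same scaling gave 3459 higher and 4623 lower for dendritic cells against macrophages, where the authors' scaling gave 4212 and 3396. For osteoclasts against macrophages the counts were 2967 and 2342 with the summed means made equal, 2212 and 3084 with upper-quartile scaling, and 2593 and 2623 with the authors' scaling.

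**Figure D2:**
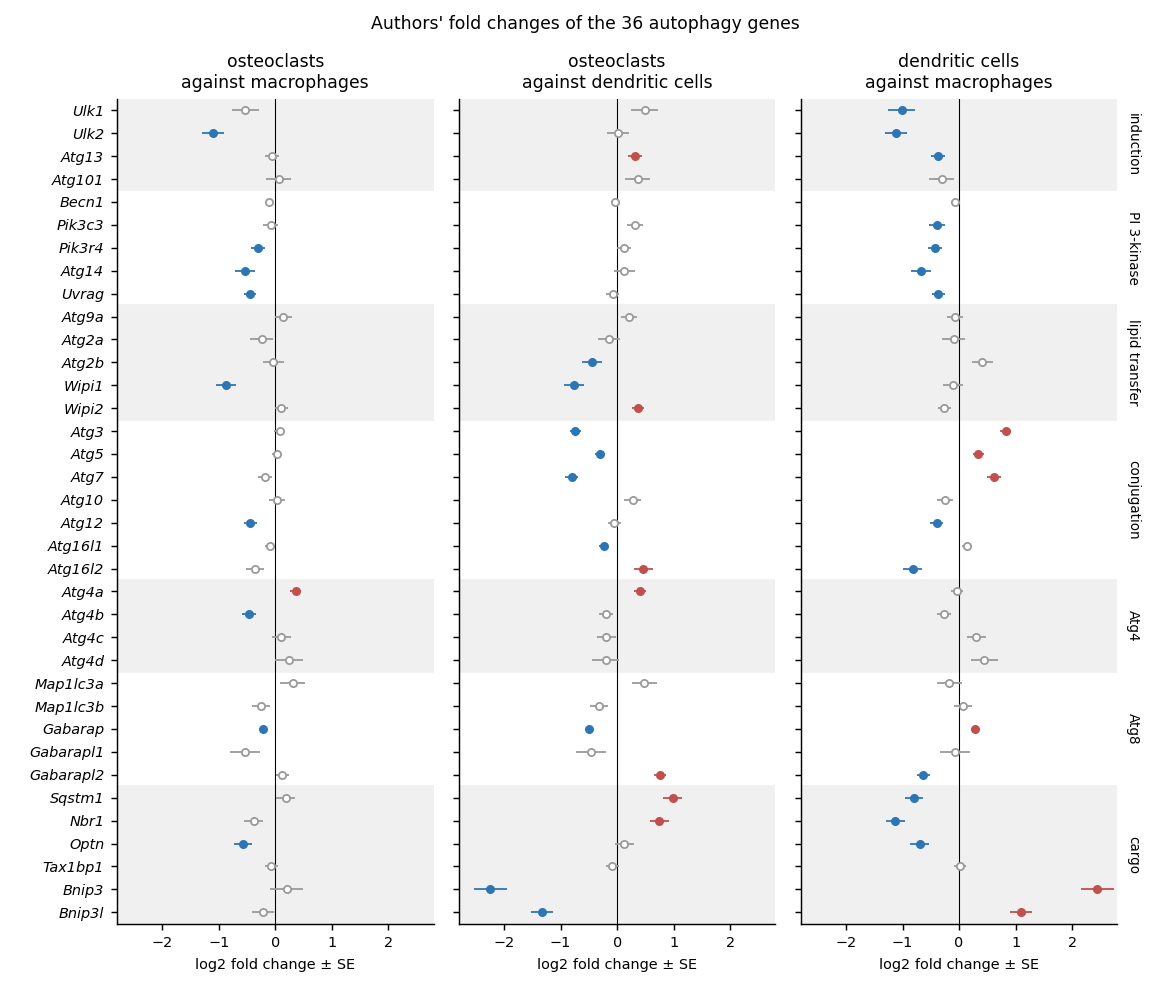
Log2 fold change of the 36 autophagy genes in 3 comparisons, from the authors' deposited table, with the SE implied by the authors' p-value as bars. Filled red points were called higher, filled blue points lower (adjusted p under 0.05) and open grey points were not called, grey bands separate the roles, and the widest changes are those of Bnip3, at -2.25 for osteoclasts against dendritic cells and 2.45 for dendritic cells against macrophages.

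With the authors' scaling, a total of 11 genes were called in none of the 3 comparisons. These were Atg101, Becn1, Atg9a, Atg2a, Atg10, Atg4c, Atg4d, Map1lc3a, Map1lc3b, Gabarapl1 and Tax1bp1. The share of all genes called in none of the 3 was not counted, so whether 11 is many or few cannot be said. In the single comparisons 29.3%, 36.9% and 36.7% of all genes tested were called in either direction, in the order given above. With the summed means made equal, 5 of the 11 gained a call. Atg101 (0.56, adjusted p = 0.0331), Atg9a (0.40, adjusted p = 0.0183), Atg10 (0.47, adjusted p = 0.00415) and Map1lc3a (0.67, adjusted p = 0.00676) were then called higher in osteoclasts than in dendritic cells. Becn1 (-0.23, adjusted p = 0.00603) and Atg10 (-0.39, adjusted p = 0.0191) were then called lower in dendritic cells than in macrophages. Becn1, the gene of Beclin 1, a core subunit of the lipid kinase complex, had means of 2631 in osteoclasts, 2690 in dendritic cells and 2838 in macrophages per the authors' deposited table. Cntd1, on the opposite strand, overlaps 43.9% of its exon bases and had means of no more than 23.0 in any cell type per the authors' deposited table. Genes on the opposite strand also overlap 28.3% of the exon bases of Gabarapl1, 22.25% of Bnip3, 17.6% of Uvrag and 17.3% of Sqstm1. If strand was not used in the counting, reads from such pairs cannot be told apart. Tax1bp1, a receptor for ubiquitin-tagged cargo, had means of 5508 in osteoclasts, 5844 in dendritic cells and 5773 in macrophages per the authors' deposited table.

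Promoter sequences of 30 of the 36 genes were at hand from RefSeq on GRCm38.p6, each covering 250 bases before and 50 after the annotated start. The 6 letters CACGTG, the core of the E-box to which factors of the MiT/TFE family bind, read the same on both strands. They occurred in promoters of 5 of these 30 genes (16.7%), against 8.09% of all 27025 genes with a promoter in the same table. The letters were chosen after the promoters had been looked at, so the shares are a description. All genes with a promoter were not matched to the 30 for expression or base composition, here or for the shorter letters below. The 5 genes were Atg3, Atg5, Atg7, Bnip3 and Atg14. The first 4 were called lower in osteoclasts than in dendritic cells and higher in dendritic cells than in macrophages per the authors' deposited table, and Atg14 was called lower in dendritic cells than in macrophages. Of all genes tested, 20.1% were called lower in osteoclasts than in dendritic cells. For dendritic cells against macrophages, 20.3% of all genes tested were called higher and 16.4% lower. The 3 promoters whose RefSeq start lies within 50 bases of the first base of the gene in GENCODE M21 are shown 5′ to 3′ on the strand of the gene, with CACGTG in capitals. They belong to genes called in the same directions with the authors' scaling, and both calls on Atg5 were lost with the summed means made equal. The RefSeq starts of Atg7 and Atg14 lie 27999 and 2215 bases inside their GENCODE genes, and their windows are left out. The windows are chr16:45158579-45158878 (plus strand) for Atg3, chr10:44268089-44268388 (plus strand) for Atg5 and chr7:138909457-138909756 (minus strand) for Bnip3.
Atg3: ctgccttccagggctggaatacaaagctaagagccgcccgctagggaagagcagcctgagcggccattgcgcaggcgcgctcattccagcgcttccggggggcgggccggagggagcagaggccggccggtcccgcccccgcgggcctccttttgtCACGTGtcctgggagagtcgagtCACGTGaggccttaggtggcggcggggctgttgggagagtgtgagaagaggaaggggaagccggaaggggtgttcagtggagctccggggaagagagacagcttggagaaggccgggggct
Atg5: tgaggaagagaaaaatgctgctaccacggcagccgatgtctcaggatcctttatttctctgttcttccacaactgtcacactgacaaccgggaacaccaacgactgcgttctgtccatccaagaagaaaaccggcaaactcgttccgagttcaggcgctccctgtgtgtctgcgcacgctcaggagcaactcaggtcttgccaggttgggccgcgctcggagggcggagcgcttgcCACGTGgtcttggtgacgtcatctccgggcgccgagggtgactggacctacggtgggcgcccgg
Bnip3: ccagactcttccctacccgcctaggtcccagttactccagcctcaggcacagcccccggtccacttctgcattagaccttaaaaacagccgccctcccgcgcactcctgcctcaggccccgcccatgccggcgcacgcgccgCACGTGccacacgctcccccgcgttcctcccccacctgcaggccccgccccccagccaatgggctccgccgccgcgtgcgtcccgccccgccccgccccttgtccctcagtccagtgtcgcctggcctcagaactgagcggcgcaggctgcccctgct
In Atg3 the letters stand at 94 and at 71 bases before the start, in Bnip3 at 108 bases before it and in Atg5 at 14 bases before it. The shorter ACGTG, which lies within CACGTG and is a core form of the element bound by hypoxia-inducible factors, occurred on either strand in promoters of 16 of the 30 genes (53.3%), against 21.8% of all genes with a promoter. Of these 16 genes, 5 were called higher in dendritic cells than in macrophages, 5 lower and 6 not called per the authors' deposited table. In this comparison 20.3% of all genes tested were called higher and 16.4% lower, and of the 36 autophagy genes 16.7% and 36.1%. Among the autophagy genes called higher, Gabarap held ACGTG and no CACGTG, and Bnip3l had no promoter in the table.

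The genes of both Ulk kinases had their highest mean in macrophages. Ulk2 (GRCm38 chromosome 11, 61775649 to 61855073, GENCODE M21) had means of 1473 in osteoclasts and 3187 in macrophages, a log2 fold change of -1.10 ± 0.19 (SE, adjusted p = 2.41e-07) per the authors' deposited table. Dendritic cells had a mean of 1463 for Ulk2 and differed from macrophages by -1.11 ± 0.19 (SE, adjusted p = 7.65e-08) per the authors' deposited table. Osteoclast libraries held 1375, 1572, 1433 and 1512 normalised reads of Ulk2, the less spread of the possible sets, and dendritic cell libraries 1217, 1507, 1558 and 1569. The 2 sets overlapped, and the fold change between them was 0.01 ± 0.19 (SE, adjusted p = 0.993) per the authors' deposited table, an interval of -0.37 to 0.39 at 95% confidence. Ulk1, the better known kinase of the pair, differed from macrophages by -1.02 ± 0.24 in dendritic cells (SE, adjusted p = 0.00015) per the authors' deposited table, with means of 925.8 in dendritic cells and 1890 in macrophages.

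The mean of Ulk1 in osteoclasts lay between those of the other cell types. Osteoclast libraries held 1459, 1330, 1155 and 1262 normalised reads, against 1021, 778.7, 1034 and 869.7 in dendritic cells, so that each osteoclast library was above each dendritic cell library. The authors' test did not call this difference, with a log2 fold change of 0.49 ± 0.24 (SE, adjusted p = 0.108) per the authors' deposited table, nor that from macrophages, at -0.53 ± 0.24 (SE, adjusted p = 0.0864). With the summed means made equal, Ulk1 was called higher in osteoclasts than in dendritic cells, at 0.68 with an adjusted p of 0.0153. Atg13, the adaptor subunit of the complex, was higher in osteoclasts than in dendritic cells by 0.32 ± 0.12 (SE, adjusted p = 0.0221) and lower in dendritic cells than in macrophages by -0.37 ± 0.12 (SE, adjusted p = 0.00536) per the authors' deposited table. Osteoclast libraries held 1603, 1623, 1693 and 1490 normalised reads of Atg13, the less spread of the possible sets, and dendritic cell libraries 1255, 1202, 1412 and 1275, with no overlap. Atg101, which holds Atg13 in the complex, varied more between libraries, with coefficients of variation of 19.0% in osteoclasts, 29.4% in dendritic cells and 16.4% in macrophages.

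Genes of the lipid kinase complex other than Becn1 were called lower in dendritic cells than in macrophages, where 16.4% of all genes tested were lower. In osteoclasts against macrophages 3 of the 5 were called lower, where 14.7% of all genes tested were. None of the 5 was called between osteoclasts and dendritic cells per the authors' deposited table, where 0 of 5 had an adjusted p under 0.05. Of all genes tested, 36.9% were called in either direction between these cell types. The log2 fold changes of the 5 ran from -0.08 for Uvrag to 0.31 for Pik3c3, whose unadjusted p was 0.0222. Pik3c3 was called higher in osteoclasts than in dendritic cells with upper-quartile scaling, at 0.33 (adjusted p = 0.0438), and with the summed means made equal, at 0.51 (adjusted p = 0.000825), and Pik3r4 with the summed means made equal, at 0.32 (adjusted p = 0.0241). Atg14 directs the complex to autophagosome formation. Its libraries held 476.8, 476.9, 410.5 and 453.4 normalised reads in osteoclasts, 386.6, 414.3, 456.3 and 404.1 in dendritic cells, and 905.9, 530.8, 690.9 and 518.9 in macrophages. All osteoclast and dendritic cell libraries lay below the lowest macrophage library, and the macrophage libraries spread widely. The fold change of Atg14 was -0.54 ± 0.18 for osteoclasts against macrophages (SE, adjusted p = 0.011) and -0.67 ± 0.18 for dendritic cells against macrophages (SE, adjusted p = 0.000731) per the authors' deposited table.

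Uvrag, which takes the place of Atg14 in a second form of the complex, had means of 1427 in osteoclasts, 1505 in dendritic cells and 1945 in macrophages per the authors' deposited table. It was lower than in macrophages by -0.45 ± 0.11 in osteoclasts (SE, adjusted p = 0.000665) and by -0.37 ± 0.11 in dendritic cells (SE, adjusted p = 0.00434) per the authors' deposited table. Pik3r4, the regulatory subunit, held 1020, 1062, 903.1 and 940.1 normalised reads in osteoclasts, 921.8, 841.8, 980.0 and 861.5 in dendritic cells, and 1461, 1098, 1214 and 1091 in macrophages, for which the less spread of the possible sets was taken. Both sets lay below the macrophage libraries, with fold changes of -0.31 ± 0.12 in osteoclasts (SE, adjusted p = 0.0378) and -0.43 ± 0.12 in dendritic cells (SE, adjusted p = 0.00146) per the authors' deposited table. With the summed means made equal, Pik3r4 was no longer called in osteoclasts against macrophages, at -0.26 with an adjusted p of 0.0858. Pik3c3, the catalytic subunit, had means of 1309 in osteoclasts, 1052 in dendritic cells and 1384 in macrophages per the authors' deposited table, and was called by the authors' test only for dendritic cells against macrophages, at -0.39 ± 0.14 (SE, adjusted p = 0.0131).

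Among genes that supply membrane, Wipi1 was lower in osteoclasts than in both other cell types. Wipi1 (chromosome 11, 109573331 to 109611967) encodes a protein that binds the lipid made by the kinase complex. Its libraries held 529.4, 467.0, 535.7 and 509.9 normalised reads in osteoclasts, 815.0, 746.1, 1185 and 731.3 in dendritic cells, and 875.2, 1031, 761.0 and 1074 in macrophages. All 4 osteoclast libraries lay below all 8 others. The log2 fold change was -0.87 ± 0.18 against macrophages (SE, adjusted p = 1.15e-05) and -0.76 ± 0.18 against dendritic cells (SE, adjusted p = 8.73e-05) per the authors' deposited table, while dendritic cells and macrophages differed by -0.10 ± 0.18 (SE, adjusted p = 0.711).

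Wipi2, the relative that recruits Atg16l1, was higher in osteoclasts than in dendritic cells. Osteoclast libraries held 1611, 1611, 1766 and 1479 normalised reads, the less spread of the possible sets, and dendritic cell libraries 1220, 1284, 1269 and 1237, with no overlap. The difference was 0.37 ± 0.11 (SE, adjusted p = 0.00385) per the authors' deposited table. Wipi2 was also called lower in dendritic cells than in macrophages with upper-quartile scaling, at -0.33 (adjusted p = 0.0102), and with the summed means made equal, at -0.41 (adjusted p = 0.0011). Atg2b, a lipid transfer protein, was lower in osteoclasts than in dendritic cells by -0.45 ± 0.18 (SE, adjusted p = 0.042) per the authors' deposited table. Its libraries overlapped, with 995.3, 1110, 964.2 and 759.8 normalised reads in osteoclasts and 1181, 1104, 1703 and 1240 in dendritic cells. The call on Atg2b was lost with upper-quartile scaling, at -0.43 with an adjusted p of 0.0519, and with the summed means made equal, at -0.25 with an adjusted p of 0.29. Atg9a, the scramblase of the vesicles that seed the membrane, and Atg2a, the paralog of Atg2b, were not called, and their means ran from 1445 to 1673 and from 1270 to 1503 over the 3 cell types per the authors' deposited table. Of the 50-base stretches of Atg9a, 30.2% also occur in transcripts of other genes, nearly all in Gm29253, which overlaps 31.8% of its exon bases on the same strand and had means of 4.73 in osteoclasts, 2.04 in dendritic cells and 1.46 in macrophages per the authors' deposited table.

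Of the 7 conjugation genes, Atg3, Atg5 and Atg7 were higher in dendritic cells than in both other cell types. Atg7 activates Atg8 and Atg12 proteins, and Atg3 passes Atg8 to the lipid. Atg3 (chromosome 16, 45158785 to 45188538) had means of 2269 in osteoclasts, 3801 in dendritic cells and 2147 in macrophages, and its log2 fold change was -0.74 ± 0.10 for osteoclasts against dendritic cells (SE, adjusted p = 1.2e-12) per the authors' deposited table. Dendritic cells exceeded macrophages in Atg3 by 0.82 ± 0.10 (SE, adjusted p = 2.54e-15), while osteoclasts differed from macrophages by 0.08 ± 0.10 (SE, adjusted p = 0.615), per the authors' deposited table. Atg7 (chromosome 6, 114643097 to 114860614) had means of 1880 in osteoclasts, 3293 in dendritic cells and 2140 in macrophages per the authors' deposited table. It was lower in osteoclasts than in dendritic cells by -0.81 ± 0.12 (SE, adjusted p = 4.16e-10) and higher in dendritic cells than in macrophages by 0.62 ± 0.12 (SE, adjusted p = 2.45e-06) per the authors' deposited table. The means of both in dendritic cells were above 2000, the highest for which reads of single libraries were sought.

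Atg5, which joins Atg12 to form part of the enzyme that attaches Atg8 proteins, could be read in every library. It held 1339, 1418, 1195 and 1411 normalised reads in osteoclasts, the less spread of the possible sets, 1638, 1604, 1778 and 1621 in dendritic cells, and 1391, 1295, 1359 and 1185 in macrophages. Every dendritic cell library lay above all 8 others. The fold change was -0.31 ± 0.09 for osteoclasts against dendritic cells (SE, adjusted p = 0.00294) and 0.34 ± 0.09 for dendritic cells against macrophages (SE, adjusted p = 0.000741) per the authors' deposited table. Both calls on Atg5 were lost with the summed means made equal, at -0.11 (adjusted p = 0.345) and 0.20 (adjusted p = 0.0775). Atg16l1, the scaffold that places the complex on the membrane, was lower in osteoclasts than in dendritic cells by -0.24 ± 0.08 (SE, adjusted p = 0.0136) per the authors' deposited table, with 1133, 1067, 1188 and 1112 normalised reads in osteoclasts and 1379, 1419, 1190 and 1325 in dendritic cells. Its highest osteoclast library and lowest dendritic cell library nearly met, and the call was lost with the summed means made equal, at -0.05 (adjusted p = 0.726).

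Atg12 and Atg16l2 were lower in dendritic cells than in macrophages. Atg12, the ubiquitin-like partner of Atg5, had means of 1683 in osteoclasts, 1742 in dendritic cells and 2287 in macrophages per the authors' deposited table. It was lower than in macrophages by -0.44 ± 0.11 in osteoclasts (SE, adjusted p = 0.000849) and by -0.39 ± 0.11 in dendritic cells (SE, adjusted p = 0.00244) per the authors' deposited table. Atg16l2 held 199.7, 189.8, 181.2 and 184.4 normalised reads in osteoclasts, 149.6, 104.8, 151.1 and 141.5 in dendritic cells, and 303.9, 221.1, 228.0 and 216.2 in macrophages. The 3 sets did not overlap. Dendritic cells differed from macrophages by -0.82 ± 0.16 (SE, adjusted p = 3.66e-06), osteoclasts from dendritic cells by 0.46 ± 0.17 (SE, adjusted p = 0.017) and osteoclasts from macrophages by -0.36 ± 0.16 (SE, adjusted p = 0.0786, not called) per the authors' deposited table. Upper-quartile scaling added that last call, at -0.42 (adjusted p = 0.0356). Atg10, the enzyme that joins Atg12 to Atg5, had means between 279.1 and 337.1 per the authors' deposited table and was not called with the authors' scaling.

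**Figure D3:**
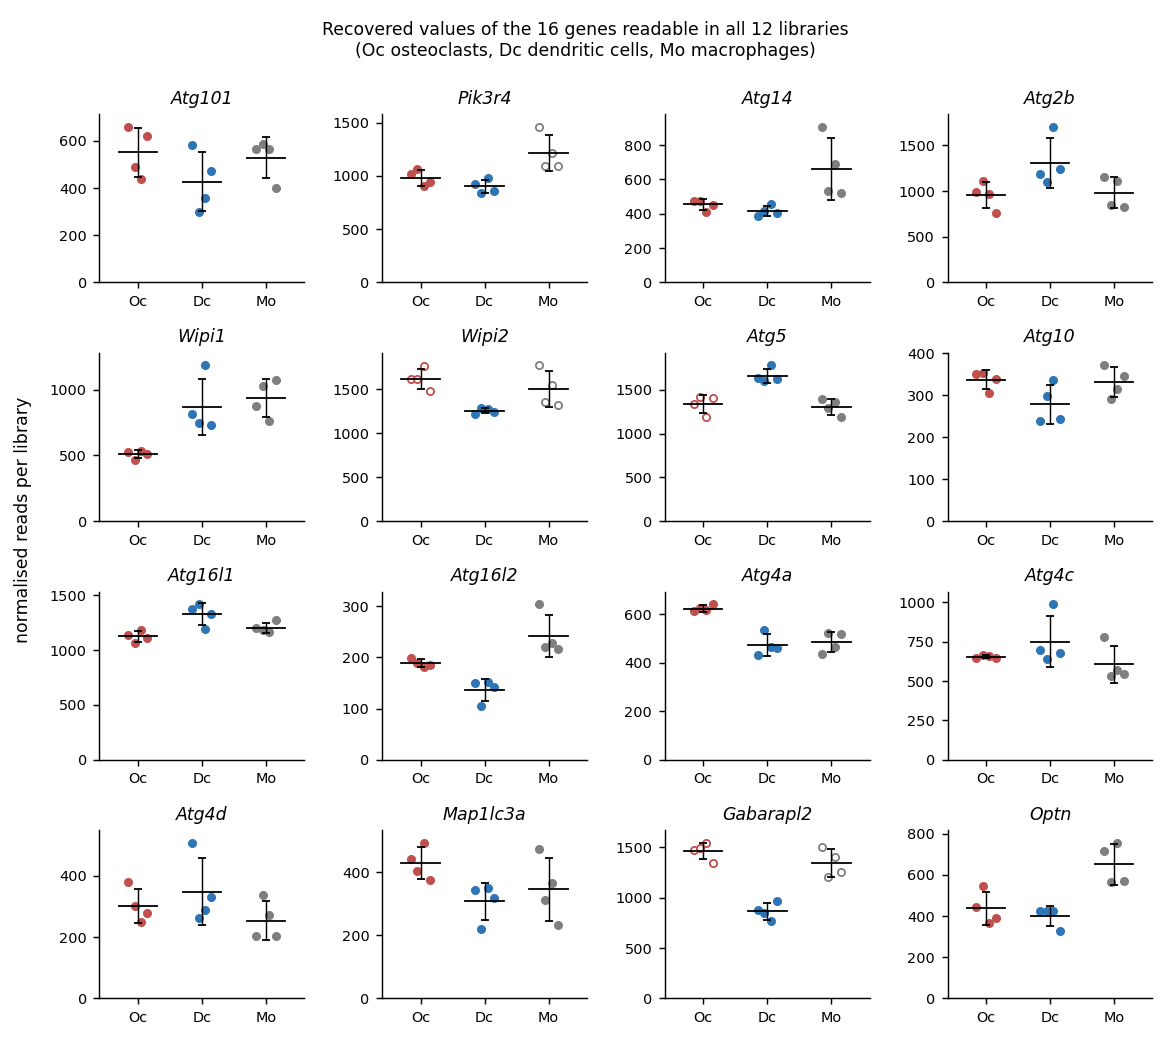
Normalised reads in each library for the 16 autophagy genes whose reads could be worked out in all 12 libraries, with osteoclasts (Oc, red) left, dendritic cells (Dc, blue) in the middle and macrophages (Mo, grey) right. Each point is a library, open points mark values taken as the less spread of several possible sets, lines are means and bars are ± SD (n = 4). Wipi1 is low in all 4 osteoclast libraries (467.0 to 535.7), Atg5 is high in all 4 dendritic cell libraries (1604 to 1778), and the 4 osteoclast points of Atg4a (611.9 to 640.9) lie above all others.

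The Atg4 proteases cut Atg8 proteins to ready them for conjugation and later free them from the membrane. Atg4a was the only gene of the 36 called higher in osteoclasts than in macrophages. Its libraries held 611.9, 623.0, 614.8 and 640.9 normalised reads in osteoclasts, 429.4, 535.4, 462.4 and 461.5 in dendritic cells, and 435.2, 522.0, 463.8 and 519.9 in macrophages. Osteoclast libraries lay above all 8 others and close together. The fold change was 0.36 ± 0.10 against macrophages (SE, adjusted p = 0.00332) and 0.40 ± 0.10 against dendritic cells (SE, adjusted p = 0.000637) per the authors' deposited table. In GENCODE M21 transcripts, 51.2% of the 50-base stretches of Atg4a also occur in its pseudogene copy Atg4a-ps, whose own means were 0.252 in osteoclasts, 0.510 in dendritic cells and 1.46 in macrophages per the authors' deposited table, so how the counting split shared reads remains uncertain.

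Atg4b, the most active of the proteases toward LC3, was lower in osteoclasts than in macrophages. It had means of 1079 in osteoclasts, 1236 in dendritic cells and 1490 in macrophages, and differed between osteoclasts and macrophages by -0.46 ± 0.13 (SE, adjusted p = 0.00146) per the authors' deposited table. Atg4b was also called lower in dendritic cells than in macrophages with upper-quartile scaling, at -0.34 (adjusted p = 0.0196), and with the summed means made equal, at -0.42 (adjusted p = 0.00318). Osteoclast libraries held 1056, 1074, 1154 and 1031 normalised reads, the less spread of the possible sets, and dendritic cell libraries 1311, 1145, 1219 and 1270, which overlapped. Atg4c and Atg4d were not called in any comparison. Atg4c was close to even over osteoclast libraries, at 643.7 to 663.7, and ranged from 639.2 to 988.1 in dendritic cells and from 532.7 to 782.2 in macrophages. Atg4d ranged from 248.3 to 378.4 in osteoclasts, 263.6 to 507.7 in dendritic cells and 203.2 to 336.0 in macrophages, and 19.3% of its exon bases overlap Kri1 on the opposite strand, a gene with means of 1245, 1108 and 1042 in the same order per the authors' deposited table.

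Among the Atg8 genes, Gabarap was higher and Gabarapl2 lower in dendritic cells than in both other cell types, and the call on Gabarap against macrophages was lost under another scaling. Gabarap (chromosome 11, 69991143 to 69994951) was called in all 3 comparisons, with means of 11876 in osteoclasts, 16788 in dendritic cells and 13816 in macrophages per the authors' deposited table. Osteoclasts were lower than dendritic cells by -0.50 ± 0.08 (SE, adjusted p = 1.07e-09) and lower than macrophages by -0.22 ± 0.08 (SE, adjusted p = 0.02), and dendritic cells were higher than macrophages by 0.28 ± 0.08 (SE, adjusted p = 0.00117), per the authors' deposited table. With the summed means made equal, both calls against macrophages were lost, at -0.17 (adjusted p = 0.0779) for osteoclasts and 0.13 (adjusted p = 0.176) for dendritic cells.

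Gabarapl2, also called GATE-16, was low in dendritic cells. Its libraries held 1478, 1489, 1546 and 1349 normalised reads in osteoclasts, 878.1, 846.9, 769.7 and 971.3 in dendritic cells, and 1506, 1204, 1406 and 1258 in macrophages, with the osteoclast and macrophage values the less spread of the possible sets. All dendritic cell libraries lay below all 8 others. The fold change was 0.76 ± 0.11 for osteoclasts against dendritic cells (SE, adjusted p = 7.1e-11) and -0.63 ± 0.11 for dendritic cells against macrophages (SE, adjusted p = 8.1e-08) per the authors' deposited table. Of its 50-base stretches, 12.2% also occur in transcripts of other genes, the most of them in Gm3724, at means of 0.254 or less in every cell type per the authors' deposited table.

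The LC3 genes were not called with the authors' scaling. Map1lc3b, whose protein is the usual marker of autophagosomes, had means of 3419 in osteoclasts, 4280 in dendritic cells and 4065 in macrophages, and the difference between osteoclasts and dendritic cells was -0.32 ± 0.16 (SE, adjusted p = 0.0947) per the authors' deposited table. Map1lc3a held 443.0, 405.4, 493.6 and 376.9 normalised reads in osteoclasts and 342.9, 219.9, 349.1 and 317.9 in dendritic cells, which did not overlap, yet the adjusted p was 0.073 per the authors' deposited table, and 0.00676 with the summed means made equal. Gabarapl1 had means of 2807 in osteoclasts, 3893 in dendritic cells and 4097 in macrophages, and differed by -0.54 ± 0.27 between osteoclasts and macrophages (SE, adjusted p = 0.123) per the authors' deposited table.

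Of the cargo receptor genes, Sqstm1, Nbr1 and Optn, whose proteins take up ubiquitin-tagged cargo, were lower in dendritic cells than in macrophages. Tax1bp1, also a receptor for such cargo, was not called, at 0.02 ± 0.11 (SE, adjusted p = 0.929) per the authors' deposited table. Bnip3 and Bnip3l were higher in dendritic cells than in macrophages. Their proteins sit in the outer mitochondrial membrane and bind Atg8 proteins directly. Sqstm1 (chromosome 11, 50199366 to 50210827) had means of 18738 in osteoclasts, 9438 in dendritic cells and 16470 in macrophages, and was higher in osteoclasts than in dendritic cells by 0.98 ± 0.16 (SE, adjusted p = 1.84e-08) per the authors' deposited table. Dendritic cells were lower than macrophages by -0.80 ± 0.16 (SE, adjusted p = 7.25e-06), and osteoclasts differed from macrophages by 0.19 ± 0.16 (SE, adjusted p = 0.443), per the authors' deposited table. Nbr1, a receptor that acts together with p62, had means of 4204 in osteoclasts, 2500 in dendritic cells and 5478 in macrophages per the authors' deposited table. It was higher in osteoclasts than in dendritic cells by 0.75 ± 0.17 (SE, adjusted p = 6.04e-05) and lower in dendritic cells than in macrophages by -1.12 ± 0.17 (SE, adjusted p = 3.23e-10) per the authors' deposited table. Upper-quartile scaling added a lower call for Nbr1 in osteoclasts against macrophages, at -0.44 (adjusted p = 0.0361).

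Optn, the gene of optineurin, a receptor for damaged mitochondria and bacteria that is linked to Paget's disease of bone in humans, was lower in both cell types than in macrophages. Its libraries held 444.0, 546.5, 366.5 and 392.0 normalised reads in osteoclasts, 426.3, 423.4, 424.7 and 327.2 in dendritic cells, and 714.2, 564.8, 756.2 and 569.0 in macrophages. The highest osteoclast library fell just short of the lowest macrophage library. The fold change was -0.57 ± 0.17 for osteoclasts against macrophages (SE, adjusted p = 0.00363) and -0.70 ± 0.17 for dendritic cells against macrophages (SE, adjusted p = 0.000156) per the authors' deposited table.

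Bnip3 (chromosome 7, 138890836 to 138909519) changed most of the 36 genes. It had means of 1357 in osteoclasts, 6639 in dendritic cells and 1178 in macrophages per the authors' deposited table. The log2 fold change was -2.25 ± 0.29 for osteoclasts against dendritic cells (SE, adjusted p = 2.65e-13) and 2.45 ± 0.29 for dendritic cells against macrophages (SE, adjusted p = 1.28e-15) per the authors' deposited table. Osteoclasts and macrophages differed by 0.20 ± 0.29 (SE, adjusted p = 0.681) per the authors' deposited table. Macrophage libraries held 1094, 1142, 1018 and 1458 normalised reads, the less spread of the possible sets. Bnip3l, its close relative also known as Nix, had means of 2054 in osteoclasts, 5176 in dendritic cells and 2398 in macrophages per the authors' deposited table. Its fold change was -1.32 ± 0.19 for osteoclasts against dendritic cells (SE, adjusted p = 8.52e-11) and 1.10 ± 0.19 for dendritic cells against macrophages (SE, adjusted p = 9.42e-08) per the authors' deposited table. Stretches of 50 bases shared with other genes' transcripts made up 16.5% of those of Bnip3 and 20.8% of those of Bnip3l, and the copies that share most with each, Gm16439 and Bnip3l-ps, had means of 0.246 or less in every cell type per the authors' deposited table.

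Both mitophagy receptors are known targets of hypoxia-inducible factors. Other targets of these factors were counted as a list, which was chosen with earlier results of these data known. Of 12 such genes, 11 were called higher in dendritic cells than in macrophages and 0 lower, with a median log2 fold change of 1.69 (all genes 0.05), where 20.3% of all genes tested were higher and 16.4% lower, per the authors' deposited table. Osteoclasts against dendritic cells had 0 of the 12 higher and 11 lower, and osteoclasts against macrophages 3 higher and 1 lower, per the authors' deposited table, where all genes gave 16.8% and 20.1%, and 14.5% and 14.7%. Egln3, an oxygen-sensing hydroxylase, had means of 206.8 in osteoclasts, 9627 in dendritic cells and 120.0 in macrophages, and differed by 5.90 ± 0.55 between dendritic cells and macrophages (SE, adjusted p = 1.49e-25), per the authors' deposited table. Higd1a, which encodes a small mitochondrial protein, had means of 560.4, 1150 and 381.8 in the same order per the authors' deposited table. Pdk1, also on the list, was higher in osteoclasts than in macrophages by 0.79 ± 0.23 (SE, adjusted p = 0.00414) per the authors' deposited table. The neutrophil markers given above were high in the same dendritic cell cultures, and their part in this pattern was not tested. Whether hypoxia-inducible factors set the levels of Bnip3 and Bnip3l here was not tested either.

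Other genes of mitophagy were counted as well. Of 9 such genes, 1 was called higher and 2 lower in dendritic cells than in macrophages per the authors' deposited table, where 20.3% and 16.4% of all genes tested were. Pink1, the kinase that marks damaged mitochondria, had means of 867.6 in osteoclasts, 833.0 in dendritic cells and 1701 in macrophages, and was lower than in macrophages by -0.95 ± 0.32 in osteoclasts (SE, adjusted p = 0.0127) and by -1.01 ± 0.32 in dendritic cells (SE, adjusted p = 0.0055), per the authors' deposited table. Nipsnap1 had means of 204.0 in osteoclasts, 169.4 in dendritic cells and 302.4 in macrophages, and was lower in dendritic cells than in macrophages by -0.83 ± 0.16 (SE, adjusted p = 2.15e-06), per the authors' deposited table. Phb2, an inner membrane receptor, was higher in osteoclasts than in macrophages by 0.74 ± 0.13 (SE, adjusted p = 9.27e-08) per the authors' deposited table.

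Genes around the core of the pathway were counted in the same way. Of all genes tested, 14.5% were called higher and 14.7% lower for osteoclasts against macrophages, 16.8% and 20.1% for osteoclasts against dendritic cells, and 20.3% and 16.4% for dendritic cells against macrophages per the authors' deposited table, and the counts below stand beside these shares. Of 13 partners of initiation and nucleation, osteoclasts against macrophages had 1 higher and 8 lower, osteoclasts against dendritic cells 2 and 2, and dendritic cells against macrophages 2 and 5 per the authors' deposited table. Rubcn, an inhibitor of the lipid kinase complex, had means of 1120 in osteoclasts, 796.7 in dendritic cells and 1731 in macrophages, and differed by -1.11 ± 0.15 between dendritic cells and macrophages (SE, adjusted p = 4.7e-12), per the authors' deposited table. Vmp1, an endoplasmic reticulum protein needed for autophagosome formation, had means of 2175, 4194 and 2192 in the same order per the authors' deposited table. Of 10 further cargo receptors, osteoclasts against macrophages had 0 higher and 5 lower per the authors' deposited table, among them Retreg1, a receptor for the endoplasmic reticulum, at -1.004 ± 0.14 (SE, adjusted p = 2.92e-11). Wdfy3, which links aggregates to the pathway, was lower in dendritic cells than in macrophages by -1.69 ± 0.21 (SE, adjusted p = 1e-14) per the authors' deposited table.

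Of 14 genes of fusion with the lysosome, osteoclasts against macrophages had 1 higher and 6 lower, osteoclasts against dendritic cells 6 and 2, and dendritic cells against macrophages 2 and 8 per the authors' deposited table (all genes 14.5% and 14.7%, 16.8% and 20.1%, and 20.3% and 16.4%). Plekhm1, a fusion adaptor whose loss causes osteopetrosis in humans, had means of 5309 in osteoclasts, 2812 in dendritic cells and 6277 in macrophages, and was higher in osteoclasts than in dendritic cells by 0.91 ± 0.18 (SE, adjusted p = 3.05e-06), per the authors' deposited table. Snap29, a SNARE of the autophagosome, had means of 1595, 3568 and 1847 in the same order per the authors' deposited table. Vamp8, its lysosomal partner, was higher in osteoclasts than in macrophages by 0.52 ± 0.10 (SE, adjusted p = 1.15e-06) per the authors' deposited table.

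Of 10 MiT/TFE factors and their regulators, osteoclasts against macrophages had 1 higher and 4 lower, osteoclasts against dendritic cells 0 and 1, and dendritic cells against macrophages 1 and 5 per the authors' deposited table. The gene higher in dendritic cells was Tfec, a MiT/TFE factor, with means of 925.1 in osteoclasts, 3250 in dendritic cells and 540.8 in macrophages and a fold change of 2.55 ± 0.25 for dendritic cells against macrophages (SE, adjusted p = 1.59e-23) per the authors' deposited table. Of 22 regulators around mTORC1 and AMPK, osteoclasts against macrophages had 3 higher and 2 lower, osteoclasts against dendritic cells 5 and 2, and dendritic cells against macrophages 0 and 7 per the authors' deposited table. For osteoclasts against macrophages these counts lay near or below the 14.5% and 14.7% of all genes. Prkaa2, a catalytic subunit of AMPK, had means of 418.1 in osteoclasts, 19.6 in dendritic cells and 135.9 in macrophages per the authors' deposited table, and was higher in osteoclasts than in macrophages by 1.60 ± 0.23 (SE, adjusted p = 2.22e-10). Of 9 genes listed for NRF2, a stress factor whose inhibitor Keap1 is bound by p62, the 3 comparisons had 3 higher and 2 lower, 4 and 3, and 3 and 3 per the authors' deposited table. Beside targets, this list holds Nfe2l2, the gene of NRF2 itself. Nfe2l2 is counted as lower, lower and higher in the 3 comparisons, in the same order.

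**Figure D4:**
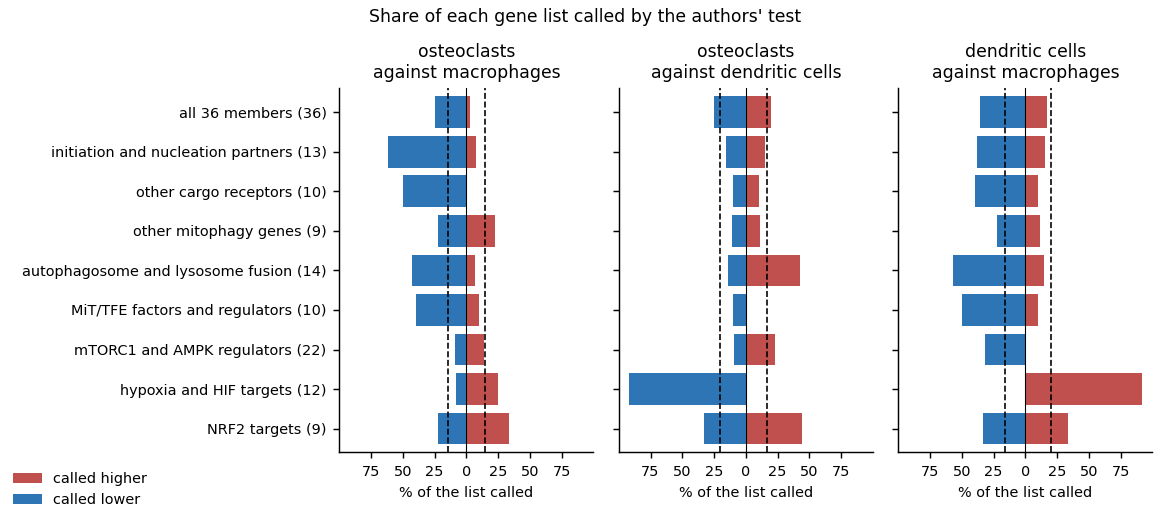
Share of each gene list called higher (red, to the right) or lower (blue, to the left) by the authors' test in 3 comparisons, in percent of the genes tested, with the number of genes of each list in brackets. The list labelled NRF2 targets also holds Nfe2l2, the gene of NRF2 itself. Dashed lines give the share of all genes tested that were called in the same direction (14.5% and 14.7% for osteoclasts against macrophages), and the bars of the 12 hypoxia and HIF targets reach farthest, with 11 lower in osteoclasts than in dendritic cells and 11 higher in dendritic cells than in macrophages.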

How the data were processed

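The series was analysed from a single table that the authors deposited. Per the file headers it gives, for each gene and pair of cell types, the mean of both cell types, the log2 fold change, its p-value and the adjusted p-value. The authors' means are reads over a library's size factor, averaged within a cell type, as the values themselves show. Tools named in the submitters' processing notes are DESeq2 2.13, Cufflinks 2.1.1, TopHat2, Bowtie2 and bcl2fastq, and the build is GRCm38. The library kit keeps strand, per the labels' protocols, but how strand entered the counting, and the annotation, are not given in the sources at hand.

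Calls are the deposited adjusted p-values under 0.05, since the table has no column per library and a test on counts could not be run. The SE is the deposited log2 value divided by the normal quantile of the authors' p-value, which assumes a Wald test. Reads per library were recovered with Python 3.11.15 by listing all sets of 4 whole reads whose mean matches 15 printed digits, for means up to 2000. Between means of 1000 and 2000, sets were listed with each library at 0.25 to 2.5 times the mean. Where several sets matched, the least spread was taken if the next spread at least 4 times as much. The method was tested on simulated data. Size factors were 0.975 to 1.04, and libraries of a cell type differed by more than counting noise in all 18 pairs. Errors printed for recovered values cover 4 cultures from separate marrow extractions, per the labels' protocols.

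Symbols, coordinates and exon lengths come from GENCODE M21 (GRCm38), and the authors may have used another annotation; 45138 of 46072 identifiers matched a symbol. The 36 genes and all gene lists were chosen with earlier results of these data known. A gene of the list of other mitophagy genes is not reported here, and its list is counted without it. All 36 are named, and of each other list at most 2 genes per direction and comparison, those with the smallest authors' p among called genes. Alternatives were an adjusted p of 0.01, adjustment over all genes or over those reaching 1 CPM in either cell type, upper-quartile scaling, equal summed means, the ratio of means with a pseudocount of 1, and leaving out each library.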

Additional observations from a re-analysis of the deposited data

Results flagged for a closer look

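In 5 of 68 groups of 4 libraries a single library stood apart from the other 3, where the gap to its neighbour over the whole range was above Dixon's 95% critical value; chance flags about 1 group in 20. Optn in dendritic cells had a low library at 327.2 normalised reads with the others at 423.4 to 426.3, a ratio of 0.971. Atg101 in macrophages had a low library below the others, which held 563.7 to 588.2, a ratio of 0.870. Atg16l2 in macrophages had a high library at 303.9, with the others at 216.2 to 228.0, a ratio of 0.865. Atg4c had a high library in macrophages, at 782.2 with the others at 532.7 to 568.1, a ratio of 0.858. The high library of Atg16l2 and that of Atg4c are the same macrophage library. Over 300 genes it stood apart from the other macrophage libraries, with a median chi-square per gene of 3.99 to 4.81 in its pairs. Pairs without it gave at most 2.73, and pairs of dendritic cell libraries up to 5.64. Of the genes called lower against macrophages with reads per library, it was highest for Atg14, Pik3r4, Atg16l2 and Gabarapl2, not for Wipi1 or Optn. Its part in the authors' calls was not tested. In dendritic cells Atg4c had a high library at 988.1, with the others at 639.2 to 693.9, a ratio of 0.843.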

How the results depend on the processing

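Of 30 counts of called genes under alternatives, 29 stayed within 1.5 times the count by the authors' own settings, and none of the calls changed direction. The exception was the count of genes called higher in osteoclasts than in dendritic cells, which was 14 with the summed means made equal, against 7. That scaling shifted every log2 fold change by 0.05 for osteoclasts against macrophages, 0.19 for osteoclasts against dendritic cells and -0.15 for dendritic cells against macrophages, which moved the median of all genes to 0.02, 0.15 and -0.10. It ended 7 calls and added 11, and upper-quartile scaling ended 1 and added 5. The ratio of the means with a pseudocount of 1 kept the direction of all 108 fold changes. Leaving out each library in turn gave 456 values for 57 gene and comparison pairs, and the largest move was 0.239 on the log2 scale. Fold changes near 0 could turn sign. For Ulk2, at 0.01 in osteoclasts against dendritic cells, leaving out the dendritic cell library at 1217 leaves libraries of 1507 to 1569. These lie above the osteoclast mean of 1473, so the sign turns. No paired analysis was possible because the columns hold means per cell type, and the recovered libraries carry no replicate number. Recovery of reads per library was tried for means up to 2000 and failed for some below that, so Bnip3l, Sqstm1, Gabarap and Atg3 have no values per library.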
